A study of Mus musculus with 54 samples.

Results

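The genes described here are the nuclear-encoded subunits of the mitochondrial respiratory chain and of ATP synthase in primary mouse microglia. They were chosen by symbol alone: every gene of the deposited count table whose symbol begins with Nduf followed by the letter a, b, c, s or v and a digit, is Sdha, Sdhb, Sdhc, Sdhd or Cyc1, begins with Uqcr or Atp5, or begins with Cox followed by a digit from 4 to 8. This gave 84 genes of 16632, namely 39 of complex I, 4 of complex II, 9 of complex III, 15 of complex IV and 17 of complex V. Of these, 81 are annotated as protein-coding. Ndufs5-ps, Ndufb4c and Ndufa11b are annotated as processed pseudogenes and are counted under complex I throughout. No measured value entered the rule, although it was set with earlier results of these data known. All members but Cox4i2 passed the filter on low counts, so 83 of the 84 were tested among 13169 genes.

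The respiratory chain passes electrons from NADH (complex I) and succinate (complex II) through ubiquinone, complex III and cytochrome c to oxygen at complex IV. Complexes I, III and IV pump protons across the inner mitochondrial membrane, and complex V, the ATP synthase, uses the gradient to make ATP. Most subunits are encoded in the nucleus and a small core is encoded by mitochondrial DNA, and many of the nuclear genes are known targets of the transcription factors NRF1, the ETS family (NRF2/GABP) and YY1. Microglia, the resident macrophages of the brain, use both oxidative phosphorylation and glycolysis, and the balance shifts when the cells are activated.

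The study used microglia from neonatal C57BL/6 mice, shaken off the astrocyte layer of flasks that each held the cells of pooled brains. Alpha-synuclein (aSyn), the neuronal protein that aggregates in Parkinson's disease, was given as a fluorescent Atto-488 conjugate at 1 µM for 14 h. The 14 groups were untreated cells (6 libraries), cells given aSyn (4 libraries), donors (aSyn-loaded cells co-cultured with acceptors) and acceptors (cells without aSyn, stained for 15 min with a violet tracer dye), with donors and acceptors taken after 0, 15, 30, 60, 150 and 300 min of co-culture and separated by flow sorting. The labels do not describe the 0 min groups further, nor say whether the untreated and aSyn-treated cells were sorted. Donor and acceptor groups had 4 libraries each, except for 3 in donors at 0 and 60 min and in acceptors at 0 and 300 min. Libraries carry replicate numbers 1 to 4, which the labels tie to cells of passage 3, 1, 2 and 2, and number 4 has a separate run of sequencing-facility library numbers, but no label says whether they came from separate mice, so p-values measure the spread between these samples only. Untreated libraries that shared a number (2 with number 2 and 2 with number 4) were summed, giving 52 samples. Donors and acceptors differed in aSyn, dye and plating format together, and these cannot be told apart.

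The 54 QuantSeq libraries, which read 1 fragment near the 3′ end of each polyadenylated transcript, held between 7807389 and 15537493 counts (median 13036175.5). Levels are therefore given as CPM (counts scaled to a common library size after TMM normalization), not divided by transcript length, since a transcript is read near its end whatever its length; an order of genes by CPM can still be moved by how well each 3′ end is captured. No mitochondrially encoded gene was listed in the table, so only the nuclear subunits are analysed here. Microglial markers were abundant (Csf1r, the colony-stimulating factor 1 receptor, averaged 1505 CPM), although P2ry12 and Tmem119, markers of microglia in the intact brain, averaged 5.93 and 5.21 CPM. The 8 astrocyte markers summed to between 7.59 and 139 CPM, against 1549 to 5303 CPM for the 8 microglial ones. The 4 oligodendrocyte markers summed to 54.6 to 432 CPM (mostly Mbp, mean 84.9 CPM), the 4 neuronal ones to at most 4.97 CPM, and Pecam1, the listed one of 2 endothelial markers, reached at most 3.06 CPM. The 3 fibroblast and mural markers summed to at most 20.1 CPM.

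Sequences of 2 kinds bear on what these counts can show. The first set is the end of the coding region of Ndufs5 (chromosome 4) beside that of Ndufs5-ps, a processed copy on chromosome 16 inside Zbtb20 that also met the rule. The 318 coding bases of Ndufs5 differ from the copy at 2 positions (99.4% identity), and the last 100 coding bases, printed here from GENCODE M21 on GRCm38, hold no mismatch, so a 50-base read from this stretch fits both places.
Ndufs5: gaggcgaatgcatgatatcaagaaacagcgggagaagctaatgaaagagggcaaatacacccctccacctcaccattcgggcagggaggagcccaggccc
Ndufs5-ps: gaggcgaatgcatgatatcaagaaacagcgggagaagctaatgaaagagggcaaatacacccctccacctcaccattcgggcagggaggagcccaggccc

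The second set is a pair of promoters, the 250 bases before the RefSeq start on GRCm38.p6, 5′ to 3′ on the gene's strand, with matches in capitals. Cox6a1 (chr5:115348959-115349208, minus strand) is among the most abundant members and carried an NRF1 match and an ETS match. Cox5a (chr9:57520982-57521231, plus strand), the member that differed most often between groups, carried no match. Abundant Atp5b also carried none, so the pair shows examples only. Whether matches go with level or with calls was not tested.
Cox6a1: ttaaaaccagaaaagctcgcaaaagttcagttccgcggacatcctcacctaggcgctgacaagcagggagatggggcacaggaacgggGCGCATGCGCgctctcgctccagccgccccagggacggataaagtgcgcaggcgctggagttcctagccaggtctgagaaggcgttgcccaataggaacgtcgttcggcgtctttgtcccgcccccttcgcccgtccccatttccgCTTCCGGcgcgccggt
Cox5a: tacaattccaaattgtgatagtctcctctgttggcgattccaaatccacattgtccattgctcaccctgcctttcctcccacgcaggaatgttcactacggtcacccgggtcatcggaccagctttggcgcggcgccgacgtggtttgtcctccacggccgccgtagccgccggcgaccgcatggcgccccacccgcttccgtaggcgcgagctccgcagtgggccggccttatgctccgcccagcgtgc

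Promoter windows from 250 bases before to 50 bases after the start were found for 66 members. Both strands were searched for exact matches to the NRF1 palindrome (the first capitals in the Cox6a1 sequence), the ETS core CCGGAAG (the second capitals there, read on the other strand) and the YY1 motif, none of which contains another. NRF1 matches were present in 5 members (7.58%) and in 1.07% of the windows of all 27025 genes of the RefSeq promoter table, which were not limited to genes measured here. ETS matches were present in 17 members (25.8%) against 9.93% of all genes, and YY1 matches in 5 members (7.58%) against 0.995%. At least one of the 3 was present in 36.4% of the members and 11.5% of all genes. These are matches of letters, and binding was not measured.

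The subunit transcripts differed widely in level, and the 3 with the highest mean were subunits of complex IV. Cox8a, a small membrane subunit of complex IV, averaged 450 CPM over the 52 samples (331 to 583), Cox6a1 440 CPM (322 to 507) and Cox4i1, the ubiquitous isoform of subunit 4, 421 CPM (263 to 537). Atp5l, the g subunit of ATP synthase, averaged 381 CPM (230 to 493.3), and the catalytic subunits Atp5b and Atp5a1 averaged 380 CPM (288 to 502) and 366 CPM (279 to 458). Complex I transcripts ranged from 42.2 CPM in Ndufb4 to 374 CPM in Ndufa2 once Ndufs5 and Ndufa11b are set aside, a range that overlaps those of the other complexes. Ndufv1, which binds NADH and FMN, averaged 48.3 CPM and the iron-sulfur subunit Ndufs1 50.5 CPM. In complex II the iron-sulfur subunit Sdhb averaged 211 CPM, the flavoprotein Sdha 139 CPM, and the membrane anchor Sdhd 54.3 CPM. In complex III, accessory Uqcrq was highest at 306 CPM, the Rieske iron-sulfur protein Uqcrfs1 averaged 88.9 CPM, and cytochrome c1 (Cyc1) was lowest at 57.2 CPM. The lowest member of complex V was Atp5g1, at 118 CPM.

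**Figure D1:**
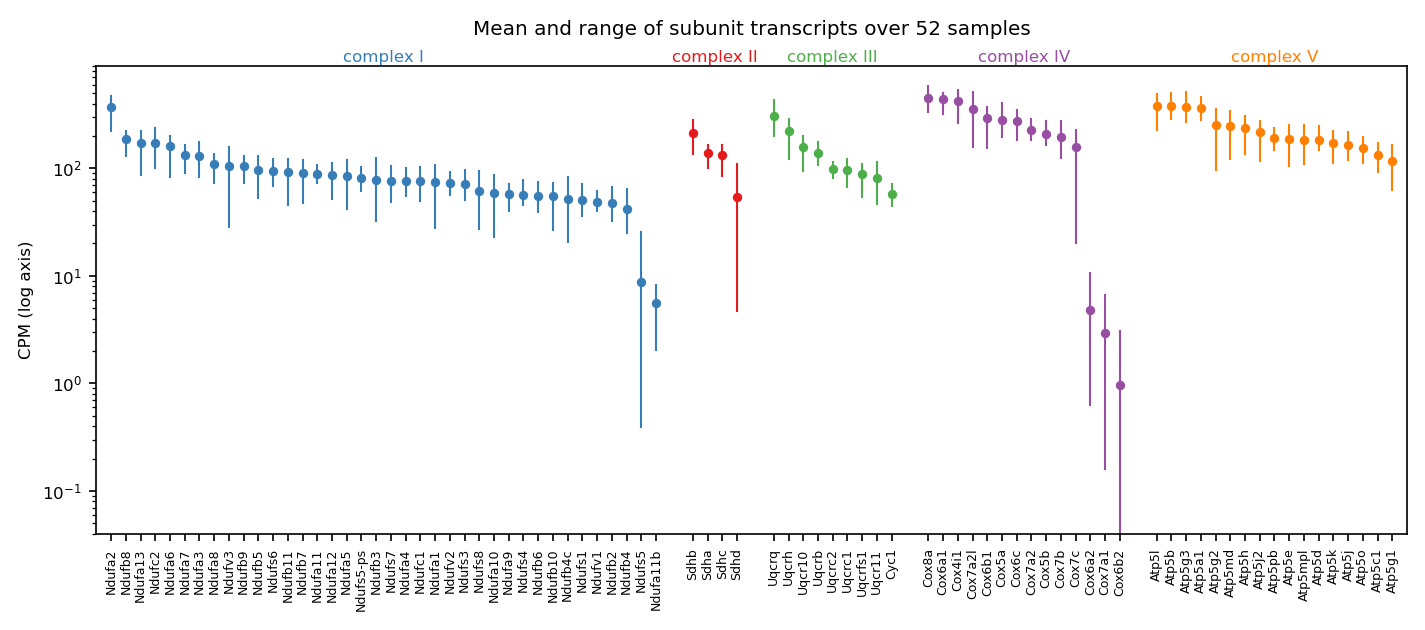
Mean (point) and lowest to highest value (line) of the subunit transcripts over the 52 samples, in CPM on a log axis, grouped by complex. All but 5 of the genes shown averaged more than 10 CPM; the line of Cox6b2 runs to the foot of the axis because its lowest value was 0, and Cox4i2, at 0.0303 CPM, is among the genes left out.

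In the Cox4i, Cox6a and Cox6b families 1 ubiquitous or liver-type form made up nearly all counts, while the Cox7a and Atp5g counts were spread over several genes. Cox4i2, the form induced by low oxygen in lung, was seen as 21 counts in all libraries together, in 11 of 52 samples. Cox6a1 made up a median of 98.9% of the Cox6a counts, the remainder being the heart and muscle form Cox6a2 (mean 4.85 CPM). Cox6b1 made up 99.7% of the Cox6b counts, against a mean of 0.971 CPM for the testis form Cox6b2. In the Cox7a family the muscle form Cox7a1 made up 0.434%, Cox7a2 39.3% and Cox7a2l, which links complexes III and IV in supercomplexes, 60.3%. Ndufa4, named as a complex I gene but known as a complex IV subunit, averaged 76.3 CPM and is counted here under complex I by its symbol. The 3 genes for the c ring of ATP synthase encode the same mature protein: Atp5g3 gave a median of 49.5% of their counts (41.2 to 66.1%), Atp5g2 34.3% and Atp5g1 15.998%.

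Processed copies affected a few members. Ndufs5-ps held a median of 90.5% (74.7 to 99.4%) of the counts of the pair it forms with Ndufs5, which itself averaged 8.71 CPM against 80.8 CPM for the copy. Ndufb4c, an intronless copy on chromosome 15, shares all of its 50-base windows with other genes and held a median of 58.3% of the Ndufb4 pair. Ndufa11b held 5.88% of the pair with Ndufa11. How reads that fit several places were counted is not given in the sources used here, so these 6 genes are uncertain one by one; their summed means were 89.5, 93.8 and 94.8 CPM for the pairs of Ndufs5, Ndufb4 and Ndufa11. In all, 31 of the 84 members shared at least one 50-base window of their last 500 transcript bases with another gene, and in 5 (Ndufb4c, Atp5l, Ndufs5-ps, Atp5h and Ndufs3) most of the windows were shared.

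Replicate number accounted for a median of 67.0% of the variance of the 83 tested members and the group for 13.9%, whereas over all tested genes the medians were 33.9% and 24.95%. Each share was computed for its factor alone, and the shares overlap because some groups lack a number. Noise alone also gives a larger share to the 14 groups than to the 4 numbers. The main contrast was between number 4 and the others: 75 of the 83 members were lower in number 4, with a median difference of -0.45 on the log2 scale, while 51.2% of all tested genes were lower, with a median of -0.01. Over the 12 groups that hold number 4, the mean log2 CPM of a complex was lower in it by 0.51 ± 0.14 (SD) for complex I, 0.74 ± 0.29 for complex II, 0.30 ± 0.15 for complex III, 0.62 ± 0.31 for complex IV and 0.46 ± 0.17 for complex V. With members over 10 CPM only, the difference of complex IV was 0.49 ± 0.18 and that of complex I 0.44 ± 0.13. All members together made up 0.785 to 1.08% of the counts of a library in number 4 and 1.18 to 1.56% in the others, ranges that do not overlap.

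The size of this difference varied between subunits. Ndufs5 differed by -2.999 on the log2 scale, its near-identical copy Ndufs5-ps by -0.29, Ndufb4c by -1.16 and its partner Ndufb4 by 0.38, the highest of all members, so in these pairs the split of counts also differed with the number. Of the members outside such pairs, Cox6a2, with few counts, was lower by 1.62, Sdhd by 1.60, Ndufv3, a regulatory flavoprotein-module subunit, by 1.44 and Cox7c by 1.34. In untreated cells numbered 1 to 4, Sdhd read 59.2, 40.9, 71.5 and 10.0 CPM, and Cox7c 191, 172, 145 and 77.7 CPM; in both genes number 4 stands below the other 3. Also outside the pairs, Ndufs1 was higher in number 4 by 0.28 and Cyc1 by 0.11, and untreated cells numbered 1 to 4 held 46.7, 40.0, 63.5 and 71.8 CPM of Ndufs1. Other measures moved with number 4: the ribosomal precursor Rn45s took a median of 17.7% of counts there and 6.65% elsewhere, and the 8 microglial markers summed to 1549 to 3413 CPM against 3404 to 5303 CPM. With Rn45s left out of the totals, the members' share was 0.991 to 1.32% in number 4 and 1.29 to 1.65% in the others, ranges that overlap at their ends. The part of these measures in the lower subunit levels was not tested.

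**Figure D2:**
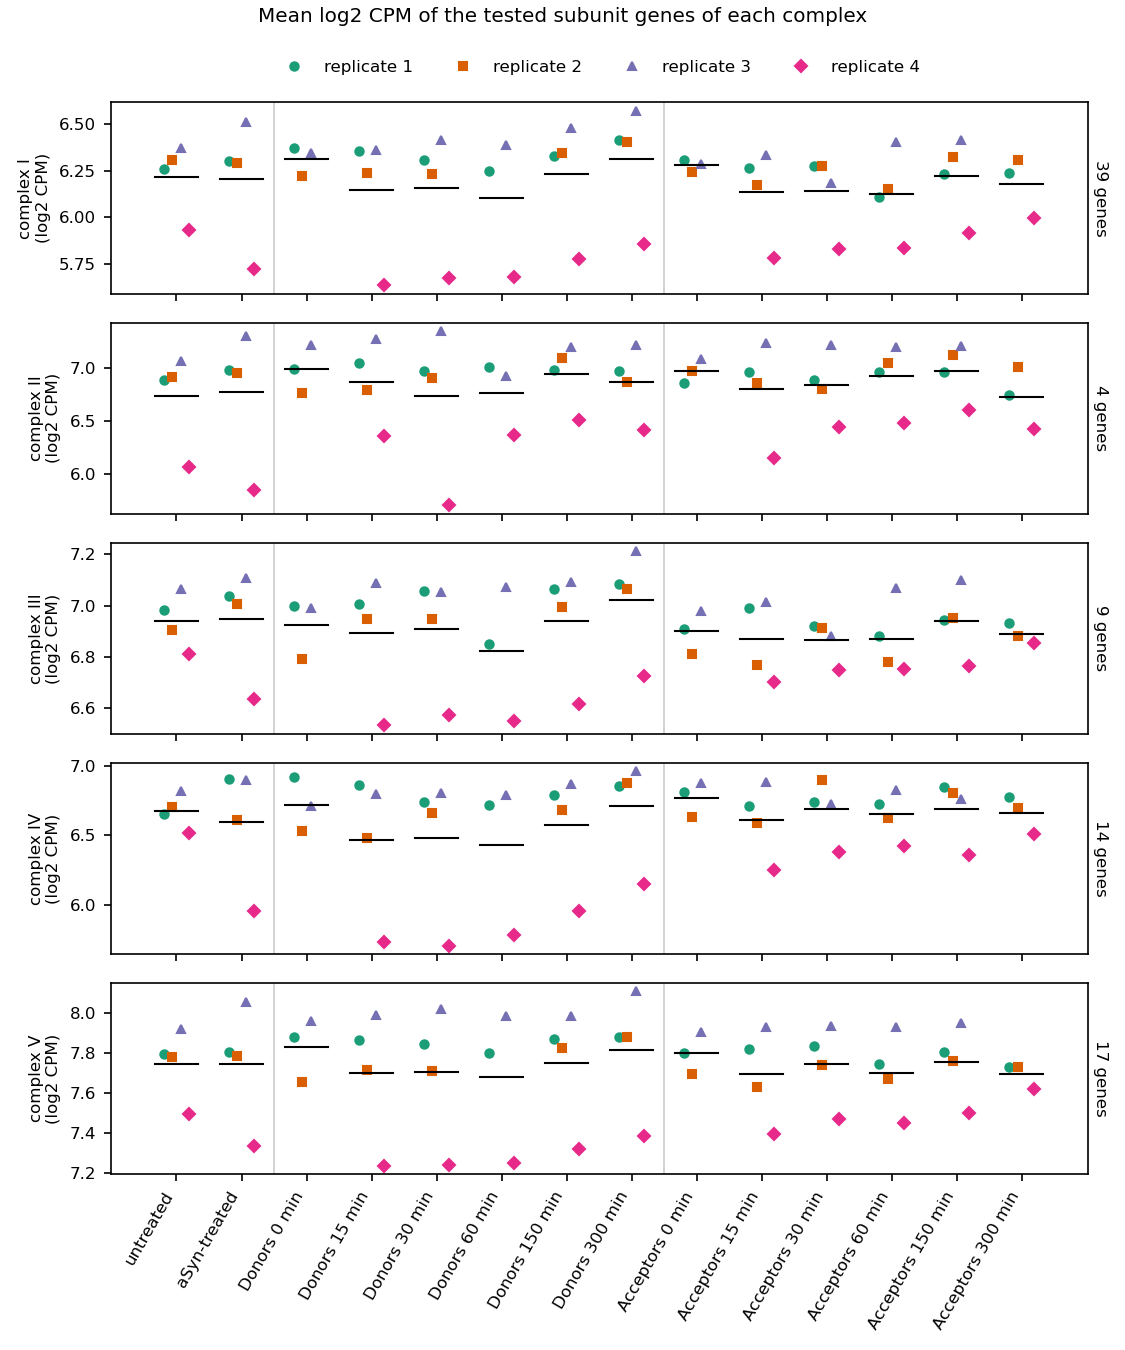
Mean log2 CPM of the tested genes of each complex (rows) in the 14 groups, 1 point per sample, shaped and coloured by replicate number; black bars are group means. Diamonds (number 4) lie below the other numbers in nearly every group, by 0.51 on average for complex I, and the means of groups without number 4 (0 min) are raised by its absence.

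Group means of the complexes lay close together against this spread. For complex I they ran from 6.10 ± 0.37 log2 CPM (SD, n = 3) in donors at 60 min to 6.31 ± 0.08 (n = 3) in donors at 0 min. Donors at 60 min hold only numbers 1, 3 and 4, so number 4 weighs more in their mean, and donors at 0 min have no number 4. For complex V they ran from 7.68 ± 0.38 (n = 3) in donors at 60 min to 7.83 ± 0.16 (n = 3) in donors at 0 min. Complex IV had a wider span, from 6.43 ± 0.56 (n = 3) in donors at 60 min to 6.77 ± 0.13 (n = 3) in acceptors at 0 min. Complex II ran from 6.72 ± 0.29 (n = 3) in acceptors at 300 min to 6.99 ± 0.23 (n = 3) in donors at 0 min. Complex III ran from 6.82 ± 0.26 (n = 3) in donors at 60 min to 7.02 ± 0.21 (n = 4) in donors at 300 min. Acceptors at 0 min also lack number 4.

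The first comparison asks whether aSyn changes these transcripts: cells given aSyn for 14 h against untreated cells, 4 samples each. The members were centred near 0: 44 of 83 members were higher and the median log2 fold change was 0.02, against 45.9% of all genes higher and a median of -0.04. Without a block for the replicate number, edgeR's quasi-likelihood test called 0 members at a Benjamini-Hochberg adjusted p of 0.05, where 2.5% of all genes were called; 1 member had an unadjusted p below 0.05, and DESeq2 also called 0. No member's unblocked fold change passed 0.5 on the log2 scale, while 31.6% of all genes did. Because the replicate numbers paired the samples, the fit with the number as a block was run as an alternative, and it called 9 members, 8 higher and 1 lower, or 10.8% of the 83, against 19.2% of all genes. Within numbers 1 to 3, which share a run of facility library numbers, 1 member was called without and 8 with the block, where 2.3% and 12.4% of all genes were called. Number 4 alone gives 1 sample a group and no test.

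Among the members that rose with the block, Cox5a, a nuclear-encoded structural subunit of complex IV, had the smallest p. It read 201, 300, 276 and 194 CPM in untreated cells numbered 1 to 4 and 275, 342, 385 and 295 CPM after aSyn. Each numbered pair was higher after aSyn, although the groups overlap because untreated number 2 lies above treated numbers 1 and 4. The means were 242.6 ± 53.3 and 324 ± 49.3 CPM (SD, n = 4 each), and the edgeR log2 fold change was 0.42 ± 0.16 (SE) with an adjusted p of 0.164 without the block and 0.42 ± 0.08 with an adjusted p of 0.00024 with it. Without each number in turn, the blocked adjusted p in edgeR was 0.000397 to 0.0136, so Cox5a, alone of the 9, was past the threshold in all 4 such fits.

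Ndufs8, an iron-sulfur subunit of complex I, read 55.8, 56.0, 56.4 and 34.8 CPM in untreated cells and 77.5, 77.3, 80.6 and 41.5 CPM after aSyn. Number 4 stands apart in both groups, and every pair was higher after aSyn by 0.25 to 0.51 on the log2 scale. The edgeR adjusted p was 0.442 without the block, 0.0187 with it and, with number 4 left out, 0.0104 without and 0.0018 with the block; leaving out number 1, 2 or 3 from the blocked fit gave 0.0704 to 0.0921. Atp5md, a small subunit of ATP synthase also known as DAPIT, read 235.05, 248.3, 237.1 and 122.5 CPM in untreated cells and 242.7, 277, 323 and 168 CPM after aSyn. Its blocked log2 fold change was 0.28 ± 0.09 (adjusted p = 0.0208 in edgeR), and the adjusted p in edgeR was 0.169 without number 3 and 0.0867 without number 4.

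The other 5 that rose with the block had fitted log2 fold changes of 0.23 to 0.25 and were higher in all 4 pairs: Atp5o, which joins the stalk of ATP synthase to its head, Sdhb, Uqcrq, the zinc-binding subunit Cox5b, and Ndufb9, an accessory subunit of the membrane arm of complex I. Single pairs differed by as little as 0.03 (Sdhb) and as much as 0.38 (Atp5o). Leaving out number 1 or 3 ended the call of Atp5o (edgeR adjusted p up to 0.103), and leaving out number 1, 2 or 3 ended those of Sdhb (up to 0.151), Uqcrq (up to 0.131) and Cox5b (up to 0.146). The call of Ndufb9 was lost without any one number (0.0525 to 0.18). Ndufb3, an accessory membrane-arm subunit, was the one that fell. It read 103, 102, 73.6 and 59.0 CPM in untreated cells and 63.4, 69.8, 74.98 and 34.3 CPM after aSyn, so it was lower in 3 of 4 pairs. The blocked log2 fold change was -0.52 ± 0.14 with an adjusted p of 0.00909 in edgeR, and of 0.0663 to 0.0783 without number 1, 2 or 4.

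Of the catalytic or otherwise defining subunits listed for this description, Sdhb and the structural subunit Cox5a were called, as given above. Ndufs8 is a further iron-sulfur subunit that was called. The 8 others reported did not pass the test. The blocked log2 fold changes for aSyn against untreated were 0.16 ± 0.08 (SE) for Ndufv1, -0.03 ± 0.12 for Ndufs1, -0.01 ± 0.08 for Sdha, 0.01 ± 0.11 for Uqcrfs1 and 0.04 ± 0.11 for Cyc1. They were 0.13 ± 0.09 for Cox4i1, 0.01 ± 0.06 for Atp5a1 and 0.11 ± 0.08 for Atp5b. Cox7a2l did not pass either. It averaged 363 ± 59.7 CPM in untreated cells and 301 ± 84.9 CPM after aSyn (adjusted p = 0.0953 in edgeR with the block).

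**Figure D3:**
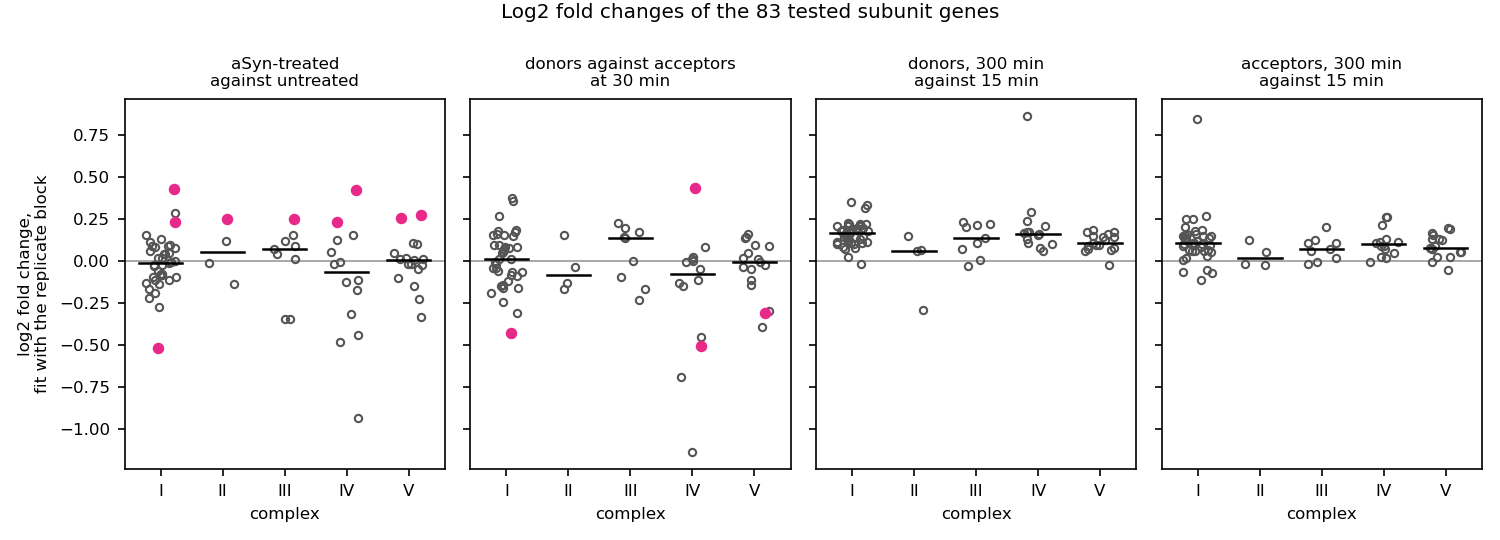
Log2 fold changes of the 83 tested genes by complex, from the edgeR fit with the replicate block, in 4 comparisons; filled points had an adjusted p under 0.05, open points did not, and bars are medians. The filled points for aSyn against untreated run from -0.52 (Ndufb3) to 0.43 (Ndufs8), and in donors at 300 against 15 min 79 of 83 points lie above 0.

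Pairs differed by replicate number. The mean log2 CPM of all members moved after aSyn by 0.08, -0.01 and 0.12 in numbers 1, 2 and 3 and by -0.25 in number 4, where 22 of 83 members were higher. The same split was seen in donors against acceptors. Over the 7 comparisons of aSyn-loaded with other cells, number 4 was lower in all 6 of its pairs (-0.29 to -0.19) and the other numbers in 4 of 19 pairs (-0.06 to 0.16). In number 4 the microglial markers also summed to less in aSyn-loaded cells (1549 to 1813 CPM) than in the others (2997 to 3413 CPM), while in numbers 1 to 3 the ranges overlapped (3404 to 5303 and 3890 to 5048 CPM). Astrocyte markers were highest in untreated number 4, at 139 CPM, with Gfap at 0 in 18 of the 52 samples. The part of either in the difference was not tested, and in bulk samples fewer cells of a type and less RNA per cell cannot be told apart.

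Donors were then compared with the acceptors of the same time. Without the block edgeR called 0 members at every time, where 0.251, 0.888, 0.805, 0.418, 0.167 and 0.0304% of all genes were called at 0, 15, 30, 60, 150 and 300 min. DESeq2 also called 0. Between 0 and 3 members (0 to 3.61%) had an unadjusted p below 0.05 in edgeR, against 6.11 to 11.5% of all genes. With the block 1, 3, 4, 1, 1 and 1 members were called, against 4.28, 9.57, 10.8, 6.7, 5.19 and 1.38% of all genes. Within numbers 1 to 3 the blocked fit called 3, 2, 5, 2, 0 and 2 members, where 11.1, 6.66, 8.58, 4.5, 3.26 and 1.17% of all genes were called. The members as a set were centred near 0, with unblocked medians from -0.02 to 0.02 up to 150 min and 0.15 at 300 min. At 300 min 74 of 83 were higher without the block and 53 of 83 with it, a time at which acceptors lack number 3, so the 2 groups differ in replicate numbers.

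Cox5a was the member called at 5 of the 6 times with the block. In acceptors at 15 min it read 208, 228.5, 285 and 206 CPM and in donors 264.8, 298, 373 and 316 CPM. Every pair was higher in donors, and the groups overlap only because acceptor number 3 exceeds donor number 1. At 30 min, the acceptors held 214, 239.01, 261.5 and 223 CPM and the donors 279, 309, 388 and 300 CPM, with no overlap. At 60 min donors with numbers 1, 3 and 4 held 248.6, 359 and 295 CPM, against 220, 306 and 208 CPM in the acceptors of the same numbers. At 150 min the values for numbers 1 to 4 were 282, 329, 375 and 291 CPM in donors and 231.07, 283, 306 and 202 CPM in acceptors. At 300 min numbers 1, 2 and 4 gave 263.6, 340 and 321 CPM in donors and 215, 258.3 and 242.3 CPM in acceptors. Donors lay above the acceptors in each of these pairs.

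The blocked edgeR log2 fold changes of Cox5a were 0.44 ± 0.08 (SE) at 15 min (adjusted p = 0.00036), 0.44 ± 0.08 at 30 min (0.000388), 0.30 ± 0.09 at 60 min (0.0285), 0.33 ± 0.08 at 150 min (0.0114) and 0.38 ± 0.09 at 300 min (0.016). At 0 min it was 0.26 ± 0.09 with an adjusted p of 0.109, and donors with numbers 1, 2 and 3 held 259.2, 273 and 349 CPM against 218, 256.7 and 258.2 CPM. Without the block the adjusted p was 0.224 to 0.834 over the 6 times. The calls at 15 and 30 min held without each number in turn (adjusted p up to 0.00951 and 0.0262), whereas the call at 60 min was lost without any one number (0.0598 to 0.164), that at 150 min without number 1, 3 or 4 (0.0581 to 0.0789) and that at 300 min without number 1, 2 or 3 (0.0984 to 0.162). The change of the donor to acceptor difference over the 6 times was tested in one fit and was not called for any member (edgeR, 0.0% of all genes without and 0.0456% with the block). In that fit 0 members had an unadjusted p below 0.05, against 0.858% of all genes without and 3.78% with the block.

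Cox5a averaged 242.6 ± 53.3 CPM in untreated cells and 232.02 to 255.4 CPM over the 6 acceptor groups, and the blocked log2 fold changes of acceptors against untreated cells were -0.06 to 0.08, none called. The aSyn-treated cells and the donors averaged 294 to 332 CPM. Cox5a lies at chr9:57521274-57532426 on the plus strand and has 5 exons in GENCODE M21. Gm26631 overlaps it on the other strand and was not listed in the count table, and 4.43% of its 50-base windows occur in other genes. Whether strand was used in counting is not given in the sources used here.

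**Figure D4:**
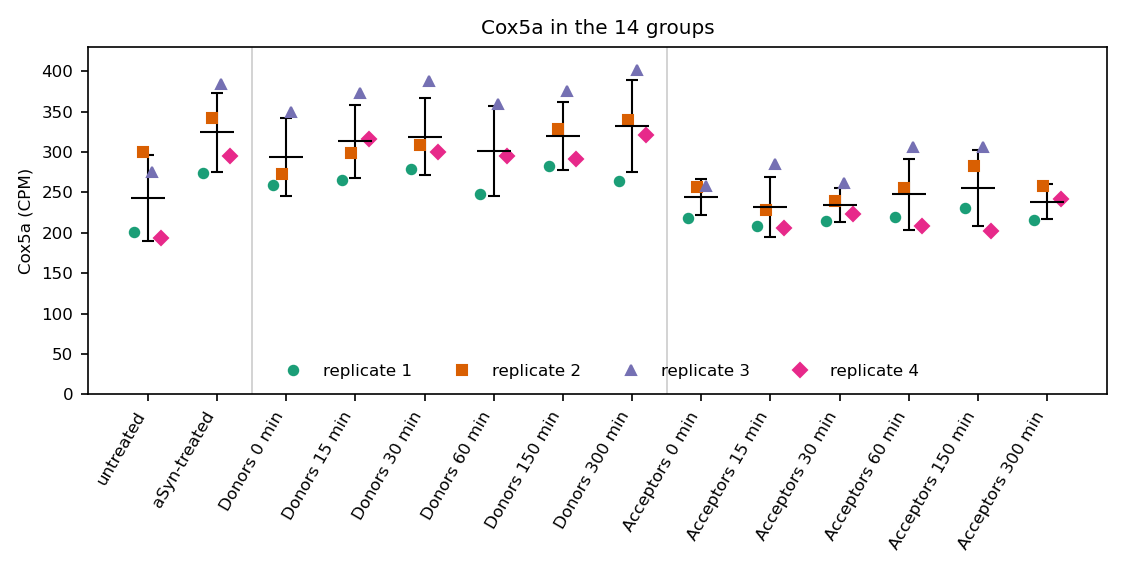
Cox5a in CPM in the 14 groups, 1 point per sample, shaped and coloured by replicate number, with the mean and SD. The aSyn-treated and donor groups average 294 to 332 CPM and the untreated and acceptor groups 232.02 to 255.4 CPM. Each aSyn-treated sample lies above the untreated sample of its number, and each donor sample above the acceptor sample of its number and time.

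Other members differed between donors and acceptors at single times. At 0 min, Atp5g3 read 433, 389 and 498 CPM in donors with numbers 1 to 3 and 356, 322 and 366 CPM in acceptors, without overlap (blocked log2 fold change 0.33 ± 0.09, adjusted p = 0.0275 in edgeR, and 0.145 to 0.25 without number 1, 2 or 3). At 15 min, Ndufb9 read 106, 99.4, 127 and 106 CPM in donors and 90.9, 92.6, 109 and 73.5 CPM in acceptors (0.27 ± 0.08, adjusted p = 0.0337 in edgeR, and 0.0573 to 0.186 without any one number). The groups overlap, and all 4 pairs were higher in donors.

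Cox7a2l was lower in donors. It read 372, 326, 327 and 166 CPM in donors at 15 min and 462, 391, 406 and 323 CPM in acceptors, and 394, 311, 353 and 177 CPM against 475, 484, 458 and 302 CPM at 30 min. Number 4 is the lowest in each group, and all pairs were lower in donors. The blocked log2 fold changes were -0.46 ± 0.14 (adjusted p = 0.0264 in edgeR, and 0.0717 to 0.0959 without number 1, 2 or 3) and -0.51 ± 0.14 (0.0125, and 0.133 without number 2). At 30 min Atp5j2, the f subunit of ATP synthase, was also lower in donors, with 211, 201, 227 and 117 CPM against 248.2, 231.3, 275 and 172 CPM (-0.31 ± 0.09, adjusted p = 0.0138 in edgeR, and 0.0611 to 0.0829 without number 1, 2 or 3). Ndufb3 read 71.9, 77.3, 87.1 and 34.5 CPM in donors and 100.05, 125, 99.8 and 43.8 CPM in acceptors (-0.43 ± 0.14, adjusted p = 0.0452 in edgeR, and 0.0561 to 0.325 without number 1, 2 or 4).

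Donors were also set against aSyn-treated cells kept alone, and acceptors against untreated cells. The 6 comparisons in each series share those controls. Acceptors differed from untreated cells in the dye as well, and the labels do not say whether either control was sorted. Co-culture therefore cannot be told apart from these differences. In donors 0 members were called at every time, with or without the block, where without it 0.0, 0.0, 0.0, 0.0, 0.0 and 0.0304% and with it 0.0, 0.0, 0.0, 0.0, 0.0 and 0.304% of all genes were called from 0 to 300 min. Without the block 0 members had an unadjusted p below 0.05, against 0.904 to 2.78% of all genes over the 6 times. With it 11, 3, 0, 12, 1 and 3 members had one. At 0 and 60 min these were 13.3 and 14.5% of the members against 5.51 and 5.46% of all genes, and at 300 min 3.61% against 8.60%. In acceptors edgeR called 0 members without the block, where 0.0, 0.0, 0.114, 0.0683, 0.137 and 0.0% of all genes were called, and 1 at 60 min with it, where 0.995, 2.25, 3.6, 4.0, 4.78 and 0.623% were called; 0 or 1 member had an unadjusted p below 0.05 without the block and 3 to 8 with it. These were 6.02% of the members against 14.04% of all genes at 0 min and 9.64% against 18.6% at 30 min. The member called was Uqcr11, a small accessory subunit of complex III: it read 110, 79.5, 106 and 94.9 CPM in untreated cells and 78.4, 71.2, 72.1 and 61.7 CPM in acceptors at 60 min, with no overlap. Its blocked log2 fold change was -0.47 ± 0.13 (adjusted p = 0.0322 in edgeR, and 0.0655 to 0.182 without number 1, 2 or 3).

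Along the co-culture, donors at 300 min were set against donors at 15 min, 4 samples each. Nearly all members were a little higher at 300 min, 78 of 83 with a median log2 fold change of 0.14, against 53.8% of all genes and a median of 0.02. By complex, 38 of 39 genes of complex I were higher, 3 of 4 of complex II, 8 of 9 of complex III, 13 of 14 of complex IV and 16 of 17 of complex V. None was called without or with the block, where 0.0759% and 0.744% of all genes were called. Without the block 0 members had an unadjusted p below 0.05, against 3.81% of all genes. With it 17 members had one, or 20.5% of them against 10.7% of all genes. The number of members higher was 53, 79, 73 and 77 in numbers 1 to 4, where 49.7 to 52.6% of all genes were higher, and the median member difference was 0.05, 0.17, 0.15 and 0.17. Against aSyn-treated cells without the block, 47, 19, 30, 22, 48 and 65 of 83 members were higher in donors from 0 to 300 min. Their medians were 0.03, -0.05, -0.04, -0.09, 0.02 and 0.08, where 46.8 to 51.8% of all genes were higher. The 15 min reference had the fewest members higher, so 300 against 15 min does not describe a steady rise.

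Single members show how small the differences between 15 and 300 min were. Ndufa2, an accessory subunit of complex I, read 361, 408, 373 and 224.8 CPM at 15 min and 414, 456, 443 and 254.4 CPM at 300 min, higher in every pair, with groups that overlap through number 4 (blocked 0.20 ± 0.08, adjusted p = 0.309 in edgeR). Uqcrb, the ubiquinone-binding accessory subunit of complex III, read 134, 136, 152 and 131 CPM at 15 min and 146, 157, 168 and 170 CPM at 300 min (0.22 ± 0.08, adjusted p = 0.295). The largest difference was in Cox6a2, at 4.09 ± 1.43 CPM against 7.72 ± 3.34 CPM (SD, n = 4 each), a gene with few counts (0.87 ± 0.30, adjusted p = 0.197 in edgeR). The 5 members that were not higher without the block were Sdhd (-0.34), Cox6b2 (-0.20), Cyc1 (-0.04), Atp5d (-0.03) and Ndufv1 (-0.02), and Cox6b2 was at 0.24 with the block.

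In acceptors at 300 against 15 min, 46 of 83 members were higher with a median of 0.01, and 72 of 83 with a median of 0.10 when the replicate block was used; 0.0% of all genes were called in both fits, and 0 members. Acceptors at 300 min lack number 3, and the members higher in the pairs of numbers 1, 2 and 4 were 21, 69 and 74. Whether donors and acceptors differed in this change was not tested for the set. The F test over all 6 times called 0 members in donors (0.0607% of all genes without and 0.577% with the block) and 0 in acceptors (0.00759% and 0.137%); in donors 1 member without and 8 with the block, and in acceptors 0 members, had an unadjusted p below 0.05. The smallest p in donors belonged to Ndufs4, an accessory subunit near the NADH site whose loss causes Leigh syndrome (adjusted p = 0.214 in edgeR with the block). It read 59.1, 58.5 and 57.1 CPM at 0 min, 54.1, 58.2, 55.1 and 58.7 CPM at 15 min, 49.0, 50.6, 56.7 and 61.8 CPM at 30 min, 45.6, 51.5 and 62.9 CPM at 60 min, 63.0, 67.3, 67.4 and 71.6 CPM at 150 min and 60.2, 57.2, 66.1 and 78.02 CPM at 300 min. Values at 150 min were all above those at 0 and 15 min, although 0 min lacks number 4. Ndufs4 was picked by its p in these same data, so this order is no further evidence of a change.

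Genes that build, supply or control the chain were counted from fixed lists. Without the block none of the assembly factors, electron carriers or regulators was called in aSyn against untreated cells. With it, where 19.2% of all genes were called, 3 of 23 complex IV assembly factors rose: Coa7, from 13.6 ± 1.16 to 24.1 ± 9.15 CPM (adjusted p = 0.0031 in edgeR), Cox11, from 10.5 ± 2.09 to 14.9 ± 0.559 CPM, and the copper chaperone Cox17, from 93.8 ± 27.9 to 126 ± 23.6 CPM. Of 14 complex I assembly factors 2 fell (Ndufaf7 and Ndufaf8), of 4 complex II factors Sdhaf2, which attaches FAD to Sdha, rose, of 6 complex III factors Uqcc3 fell, and of 4 complex V genes Tmem70 rose. Among 11 tested genes of ubiquinone synthesis and cytochrome c, Coq10b and Coq4 rose and Coq2 fell, from 17.2 ± 2.89 to 11.02 ± 2.67 CPM (SD, n = 4 each). The 12 tested regulators, among them Nrf1, Gabpa, Yy1, Tfam and Ppargc1b, had 0 calls with or without the block and a blocked median of 0.15.

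The 78 mitochondrial ribosomal protein genes had 1 call without the block and 12 with it (11 higher), where 2.5% and 19.2% of all genes were called, with a blocked median log2 fold change of 0.07 for aSyn against untreated cells. Cytosolic ribosomal protein genes, 90 tested, had 4 calls (3 higher and 1 lower) and a blocked median of -0.18, against -0.05 for all genes. In donors against acceptors at 30 min 32 of them were called lower and 0 higher with the block, where 10.8% of all genes were called in either direction, with a median of -0.34, where the subunit genes had a median of -0.00. In donors at 300 against 15 min the unblocked medians were 0.09 for the mitochondrial and 0.11 for the cytosolic ribosomal proteins, beside 0.14 for the subunit genes, and 0 of either list was called. Cox17 was also called higher in donors at 15, 60 and 150 min with the block, at 118, 123.1 and 134 CPM against 80.8, 88.5 and 96.1 CPM in acceptors. Coq10b was called higher in donors at 0, 15 and 30 min, at 24.7, 27.5 and 29.1 CPM against 10.8, 15.6 and 16.3 CPM, and lower in donors at 300 than at 15 min (15.6 against 27.5 CPM). Uqcc3 was called lower in donors at 30, 60 and 150 min, at 25.1, 21.7 and 27.5 CPM against 35.5, 32.9 and 38.3 CPM. Cox14, a complex IV assembly factor, was called higher in donors at 300 than at 15 min (86.9 against 68.1 CPM). Further calls in donors against acceptors were Ndufaf8 lower at 30 min, and Coq2 lower and Coq7 higher at 60 min. With the block 4.28, 9.57, 10.8, 6.7 and 5.19% of all genes were called there from 0 to 150 min. Acceptors against untreated cells had only lower calls with the block. These were Coa3 and Foxred1 at 15 min, Coq2 at 30 min, Coq5 and Foxred1 at 60 min and Coa3 at 150 min. At these 4 times 2.25, 3.6, 4.0 and 4.78% of all genes were called.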

How the data were processed

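The authors deposited raw gene counts of 54 QuantSeq 3′ libraries (50-base single reads, per the labels' protocols) and a normalized signal table, which equals the deposited counts divided by a size factor in 100.0% of values within 0.051. The submitters' processing notes name STAR, Partek, DESeq2 and mm10; counting of strand and multiple matches is not given in the sources used here. All values are from the counts. The smallest total of a listed gene was 10, so genes below that are not in the table.

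Untreated libraries that share a number were summed (chi-square per degree of freedom 10.3 and 12.1, against 24.2 to 288 between numbers). Genes were kept by edgeR's filterByExpr (minimum count 10), TMM-normalized and fitted with edgeR 4.0.16 (R 4.3.3) over all 14 groups, in 21 comparisons and 3 F tests over co-culture time, with p-values adjusted over all 13169 genes (Benjamini-Hochberg, 0.05). CPM uses TMM library sizes, and log2 CPM a prior count of 2. DESeq2 1.42.0, other size factors, no filter, left-out replicates and a replicate block were alternatives. The replicate numbers pair the samples: deviations from group means correlated within every same-numbered pair (lowest r = 0.199, over 13169 genes). The labels do not say what a number marks.

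The members and lists were chosen with earlier results of these data known. Named members are those called only with the block (the 3 largest rises and falls per comparison in full), catalytic or defining subunits, isoforms and the highest and lowest of each complex. The list of other pathway genes follows the same plan. Some further genes (Ndufv3, Cox7c, Ndufs4, Uqcrb, Ndufa2, Atp5d and those named for shared sequence) were named after their values were seen. Cox8b, Cox8c and Ndufa4l2 were not analysed here. The values of 1 catalytic subunit, which stays in the counts and medians, are not reported here. The scripts were tested on simulated data.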

Additional observations from a re-analysis of the deposited data

Results flagged for a closer look

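In 200 sets of 4 samples (the levels of the complexes and of all members, and some of the members named with values, in each group of 4), 20 had a sample farther from the others than Dixon's 95% limit of 0.829 allows, or 10.0%, where chance gives about 1 in 20. The sets share samples and genes and are not independent, so this contrast is only a rough guide. In 18 of the 20 the far sample was the replicate-4 one and the lowest. For the mean log2 CPM of a complex these were 5.64 for complex I in donors at 15 min, 5.71 and 6.15 for complex IV in donors at 30 and 300 min, and 6.39 for all members in acceptors at 30 min. Atp5j2 read 142 CPM in donors at 300 min. Atp5md read 122.5 CPM in untreated cells and 170 CPM in acceptors at 30 min. Cox7a2l read 175 CPM in aSyn-treated cells, 169 and 184 CPM in donors at 150 and 300 min, and 302 and 336 CPM in acceptors at 30 and 150 min. Ndufb3 read 40.9 CPM in acceptors at 15 min. Ndufs8 read 34.8 CPM in untreated cells, 41.5 CPM in aSyn-treated cells, and 27.5 and 34.5 CPM in donors at 15 and 30 min. Sdhb read 140 CPM in donors at 15 min. The other two were high values of replicate number 3: Atp5o at 192 CPM in donors at 300 min and Cox5b at 242 CPM in acceptors at 60 min.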

How the results depend on the processing

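The count of members called was 0 in all 21 comparisons and 3 F tests as fitted. It was also 0 with DESeq2's size factors, with no filter on low counts and with DESeq2. The same held with the copies Ndufs5-ps, Ndufb4c and Ndufa11b summed with their partners (chosen after seeing the data). Without replicate 4 and without the block it was 1 for aSyn-treated against untreated cells and 1 for donors against acceptors at 30 min (Ndufs8 in both); over all left-out replicates both ran from 0 to 1. The replicate block gave 9 for aSyn against untreated, 1 for acceptors at 60 min against untreated, and 1, 3, 4, 1, 1 and 1 for donors against acceptors at 0, 15, 30, 60, 150 and 300 min, with the same counts when copies were summed, and changed no other call. With the block and each replicate left out in turn (chosen after seeing the data), the counts ran from 2 to 8 for aSyn against untreated, 0 to 2 for acceptors at 30 min and 0 to 1 at 60 min against untreated, and 0 to 3, 1 to 2, 1 to 5, 0 to 2, 0 to 1 and 0 to 2 for donors against acceptors in the same order of times. Calls with the block therefore rest on the pairing, and 3 of its 21 calls, all of Cox5a, held without each replicate. No result changed direction while called. Low levels (Cox6b2 at a mean of 0.971 CPM, Cox7a1 at 2.95 CPM) and the members that share sequence with copies are limited by counts and assignment.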
